A study of Rattus norvegicus with 9 samples.

Results

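The 8 genes Adipoq, Fabp4, Plin1, Plin4, Cidec, Lipe, Pparg and Lpl, a set commonly used to recognise fat cells of the bone marrow, were followed across RNA from rat femoral fractures. They were chosen by name from the protein-coding genes of the deposited count table, and each matched 1 of its 35360 genes. The tissue came from the middle of the fracture, and 9 libraries fell into 3 groups of 3. The Gel group, the control, received a gel alone, the ALN group (ALN+Gel) that gel with the bisphosphonate ALN added, and the Mg-ALN group (Mg-ALN@Gel) that gel with a material built from magnesium and ALN, so that every group carried a fracture and a gel. Below, ALN and Mg-ALN name these groups, which the plots call ALN gel and Mg-ALN gel. The study asked whether magnesium counteracts the bone fibrosis that its authors attribute to the bisphosphonate. Strain, age, sex, dose and the time after fracture are not given in the sources used here, and neither is whether the libraries of a group came from separate animals. The spread on which the p-values rest is that between these libraries, and it may be technical in part.

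Marrow adipocytes arise from stromal progenitors that can also form osteoblasts. The nuclear receptor encoded by Pparg, working with factors of the C/EBP family, switches on the fat cell programme, and the mature cell packs triglyceride into a large lipid droplet and secretes adiponectin, the product of Adipoq. The genes of this programme differ in how closely they are tied to fat cells. Adipoq, Plin1 and Cidec are largely restricted to adipocytes, whereas Fabp4 and Lpl are also made by macrophages, Fabp4 by capillary endothelium, and Plin4 by skeletal muscle.

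Total counts per library lay between 13388689 and 18763270. Libraries of a group differed widely, the common biological coefficient of variation in edgeR being 51.4%. Values per library are given in the order of libraries 1, 2 and 3. The share of counts from genes of the mitochondrial genome was 17.5%, 5.40% and 4.16% in Gel, 39.5%, 15.6% and 7.61% in ALN, and 11.2%, 10.6% and 31.6% in Mg-ALN.

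The levels of the 8 genes spanned a wide range. By FPKM, which is per transcript length and so allows genes to be compared, Fabp4 had a mean of 160.5 over the 9 libraries and stood at the 98.1 percentile of protein-coding genes. Lpl followed with 35.2 FPKM, Lipe with 8.84 and Pparg with 2.04. The other members were scarce, with mean values of 0.357 FPKM for Adipoq, 0.237 for Plin4, 0.138 for Plin1 and 0.0856 for Cidec. Cidec stood at the 31.5 percentile. The order Fabp4, Lpl, Lipe, Pparg, Adipoq held within each of the 9 libraries. Across libraries the range of Fabp4 lay apart from that of Lpl, and that of Lipe apart from that of Pparg. The ranges of Lpl and Lipe touched, as did those of Pparg and Adipoq. Below Adipoq the order was not fixed. Plin4 exceeded Plin1 in 3 libraries and was lower in 5, and Plin1 exceeded Cidec in 5 libraries and was lower in 3.

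**Figure D1:**
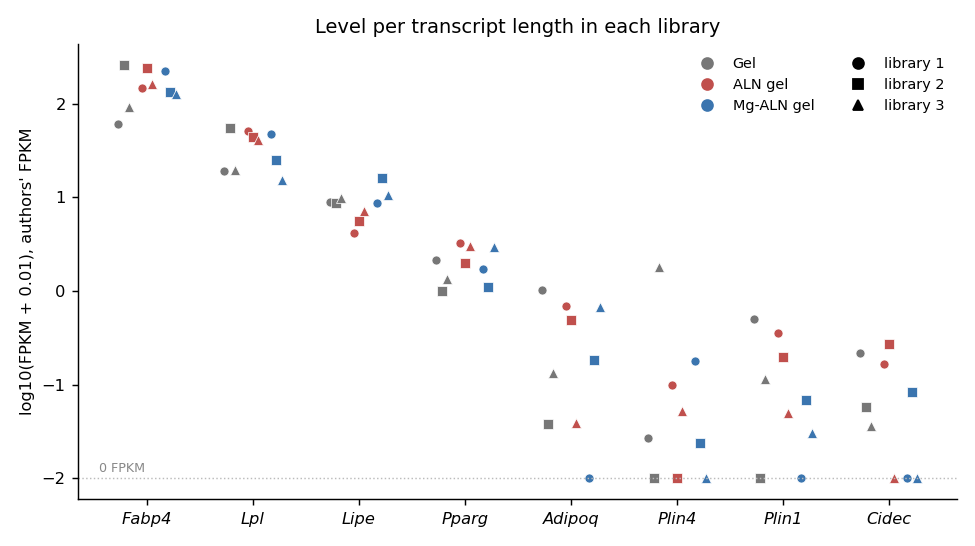
Level of the 8 genes in each library, as log10 of the authors' FPKM plus 0.01, with groups by colour and library numbers by shape. Fabp4, Lpl, Lipe and Pparg form descending steps in all 9 libraries, whereas Adipoq, Plin4, Plin1 and Cidec scatter down to the dotted line of 0 FPKM.

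The mean level of Fabp4 was 449.7 times that of Adipoq by FPKM, and that of Lpl 98.6 times. Many of the 12 other white adipocyte markers listed were also scarce. Lep, which encodes the fat cell hormone leptin, had at most 3 counts in any library, and Retn, which encodes resistin, at most 11. Acvr1c and Adig had at most 1 count each, and the glycerol channel gene Aqp7 and the gluconeogenic enzyme gene Pck1 at most 5. Ucp1, the uncoupling protein of brown fat, had 0 counts in all 9 libraries. Others of these markers were detected throughout, among them Trarg1 with 30 to 246 counts and Adrb3, the fat cell adrenoceptor, with 6 to 49. Cfd, which encodes the complement factor adipsin and is also made by myeloid cells, had 732 to 5666 counts. The label of marrow adipocyte genes thus rests on few reads for the genes that are most restricted to fat cells. The 8 genes are therefore described by name and not as a measure of fat cells. In tissue RNA, fewer cells of a type and less RNA per cell cannot be told apart.

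Adipoq (ENSRNOG00000001821, chromosome 11, 81330293 to 81344488, minus strand, in the coordinates of the deposited table) had 30, 1 and 4 counts in Gel, 19, 16 and 1 in ALN, and 0, 6 and 22 in Mg-ALN. Each group held at least 1 library with 16 or more counts and 1 with at most 1, so the groups overlapped fully. In CPM, counts relative to the TMM-scaled library size, this was 0.814 ± 1.15 in Gel, 0.846 ± 0.720 in ALN and 0.585 ± 0.726 in Mg-ALN (mean ± SD, n = 3 each). The edgeR log2 fold change was 0.06 (SE 1.55, adjusted p = 0.997) in ALN against Gel, −0.50 (SE 1.56, adjusted p = 0.935) in Mg-ALN against ALN and −0.44 (SE 1.56, adjusted p = 0.936) in Mg-ALN against Gel, and each changed its sign when single libraries were left out. The count of 0 in Mg-ALN library 1 allows up to 3 counts, or 0.236 CPM, as a one-sided bound at 95%. Its two-sided 95% Poisson interval reaches 0.291 CPM.

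Plin1 (ENSRNOG00000015086, chromosome 1, 141458181 to 141471010, minus strand) encodes perilipin 1, which coats the droplet and restrains its breakdown. It had 21, 0 and 5 counts in Gel, 14, 9 and 2 in ALN, and 0, 3 and 1 in Mg-ALN. Cidec (ENSRNOG00000009153, chromosome 4, 145377431 to 145390497, minus strand), whose product fuses small droplets into large ones, had 7, 2 and 1 counts in Gel, 5, 10 and 0 in ALN, and 0, 3 and 0 in Mg-ALN. Both genes were highest in the same 3 libraries, Gel library 1 and ALN libraries 1 and 2, and at most 3 counts of either were found in any Mg-ALN library. Their groups still overlapped in every comparison, and neither gene passed the filter on low counts, so they have no edgeR value in the main fit. Without the filter, the edgeR log2 fold change of Mg-ALN against ALN was −2.68 for Plin1 (adjusted p = 0.681) and −2.29 for Cidec (adjusted p = 0.705).

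Summed over Adipoq, Plin1 and Cidec, the libraries held 58, 3 and 10 counts in Gel, 38, 35 and 3 in ALN, and 0, 12 and 23 in Mg-ALN. In each group the library with the most Adipoq was also the one with the largest mitochondrial share, at 17.5% in Gel library 1, 39.5% in ALN library 1 and 31.6% in Mg-ALN library 3. With the share as a covariate, the edgeR log2 fold change of Adipoq was −1.10 in ALN against Gel, −0.48 in Mg-ALN against ALN and −1.58 in Mg-ALN against Gel, with adjusted p of 0.689 or more.

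**Figure D2:**
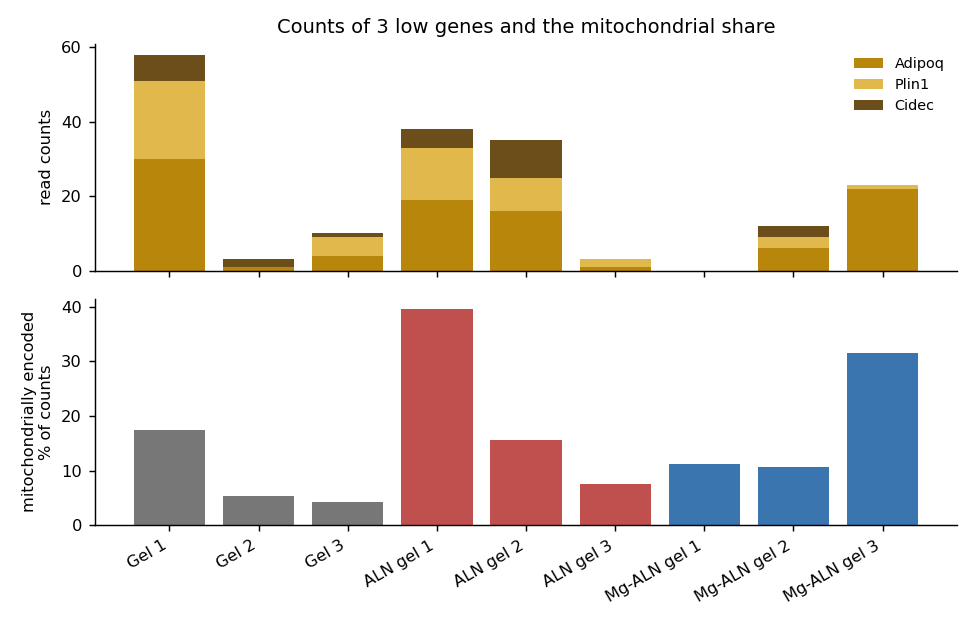
Read counts of Adipoq, Plin1 and Cidec stacked for each of the 9 libraries (upper panel), and the percentage of counts from mitochondrially encoded genes in the same libraries (lower panel, coloured by group). The stacks run from 0 in Mg-ALN library 1 to 58 in Gel library 1, and every group holds a high and a low library.

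The promoters of these 3 genes are shown because the genes share adipocyte-restricted expression and were highest in overlapping sets of libraries. The sequences are the 250 bases before the start site in RefSeq's GRCr8 assembly, 5′ to 3′ on the gene's strand, and capitals mark matches to the motifs described after them.
Adipoq, chr11:91240170-91240419, minus strand: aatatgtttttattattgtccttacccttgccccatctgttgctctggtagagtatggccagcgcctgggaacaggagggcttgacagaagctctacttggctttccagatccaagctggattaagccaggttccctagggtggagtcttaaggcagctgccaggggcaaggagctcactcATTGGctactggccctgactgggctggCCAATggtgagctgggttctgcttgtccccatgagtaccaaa
Plin1, chr1:143086149-143086398, minus strand: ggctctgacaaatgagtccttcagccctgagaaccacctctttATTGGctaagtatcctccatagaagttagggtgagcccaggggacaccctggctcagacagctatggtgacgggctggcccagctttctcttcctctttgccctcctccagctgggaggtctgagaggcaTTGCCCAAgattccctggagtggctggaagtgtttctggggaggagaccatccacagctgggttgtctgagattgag
Cidec, chr4:148137116-148137365, minus strand: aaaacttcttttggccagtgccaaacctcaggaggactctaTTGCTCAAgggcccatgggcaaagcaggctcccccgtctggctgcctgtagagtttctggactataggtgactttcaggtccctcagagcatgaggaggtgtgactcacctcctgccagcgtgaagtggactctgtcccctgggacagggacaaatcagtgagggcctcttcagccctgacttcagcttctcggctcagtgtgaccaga
The motifs searched were the nuclear receptor hexamer AGGTCA, the PPAR direct repeat of that hexamer with any 1 base between its copies, the C/EBP motif TTGCNNAA and the CCAAT box, each on both strands, and the TATA box TATAAA on the gene's strand. Adipoq held the CCAAT box at position −42 and its reverse complement at −69, counted from the start site to the first base of the match. Plin1 held the C/EBP motif at −77 and the reverse complement of the CCAAT box at −207, and Cidec held the C/EBP motif at −209. Of 27455 rat promoters of the same length, 34.3% held the CCAAT box, 9.2% the C/EBP motif and 8.38% the TATA box. AGGTCA occurred in 13.7% and the PPAR direct repeat in 0.0546%, and neither was in the windows of Adipoq, Plin1 and Cidec. In Pparg, the second of the start sites listed had the C/EBP motif at −174 and the CCAAT box at −103, while the first had no match and Plin4 had none. A match is a description of letters and not of a bound site.

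Fabp4 (ENSRNOG00000010805, chromosome 2, 93792601 to 93797305, plus strand) encodes the fatty acid carrier aP2. It had 41.5, 173 and 61.5 CPM in Gel, 102, 162 and 111 in ALN, and 149.7, 90.5 and 87.8 in Mg-ALN. Gel held both the highest library, number 2, and the lowest, number 1, and all groups overlapped. The means were 92.0 ± 70.8, 125 ± 32.3 and 109 ± 35.0 CPM. The edgeR log2 fold change was 0.44 (SE 0.50, adjusted p = 0.869) in ALN against Gel, −0.20 (SE 0.50, adjusted p = 0.921) in Mg-ALN against ALN, and 0.25 (SE 0.50, adjusted p = 0.883) in Mg-ALN against Gel.

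Lpl (ENSRNOG00000012181, chromosome 16, 22537056 to 22561496, minus strand) encodes lipoprotein lipase, which frees fatty acids from circulating triglyceride. Its values were 70.9, 202 and 70.8 CPM in Gel, 197, 165 and 154 in ALN, and 173, 93.04 and 58.1 in Mg-ALN. The 3 ALN libraries were all high, but Gel library 2 and Mg-ALN library 1 lay among or above them, so the groups overlapped. The log2 fold change was 0.59 (SE 0.49, adjusted p = 0.810 by edgeR) in ALN against Gel, −0.67 (SE 0.49, adjusted p = 0.691) in Mg-ALN against ALN and −0.09 (SE 0.49, adjusted p = 0.963) in Mg-ALN against Gel.

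As macrophages also make Fabp4 and Lpl, their markers are given beside both. The summed CPM of the 15 macrophage markers was 6802, 21533 and 10250.3 in Gel, 12744, 16927 and 7397 in ALN, and 32106, 8577 and 12823 in Mg-ALN. The 3 libraries with the highest sums, Gel library 2, ALN library 2 and Mg-ALN library 1, were the 3 with the most Fabp4, and they were among the 4 with the most Lpl. The other libraries did not all follow this order, ALN library 3 having the second lowest sum and the fourth highest Fabp4. The sum depended on Lyz2, a lysozyme gene that neutrophils also express, which had 655, 8040.1 and 3713 CPM in Gel, 1469, 7492 and 1585 in ALN, and 22207, 3302 and 4348 in Mg-ALN. Without Lyz2, the sums were 6146, 13493 and 6537 in Gel, 11275, 9435 and 5811 in ALN, and 9899, 5274 and 8475 in Mg-ALN, and ALN library 1 took the place of ALN library 2 among the 3 highest. Among the markers left, Spp1 had the most CPM in every library, with 8368 in ALN library 1 and 5145 in ALN library 2. The sum without Lyz2 thus depended on Spp1. ALN library 1 also had the highest summed CPM of osteoclast markers, at 31186, and which cells made the Spp1 RNA was not tested. Of the markers, Marco was at 0 in all libraries. With the macrophage marker score as a covariate, an alternative chosen after seeing the data, the log2 fold change of Fabp4 was 0.75 in ALN against Gel, −0.21 in Mg-ALN against ALN and 0.54 in Mg-ALN against Gel, and that of Lpl was 0.80, −0.76 and 0.045 in the same order. Over the 14 macrophage markers tested, 5 had a higher and 9 a lower fitted level in ALN than in Gel (median log2 fold change −0.28), 9 were higher and 5 lower in Mg-ALN than in ALN (median 0.21), and 4 were higher and 10 lower in Mg-ALN than in Gel (median −0.17). Each of these medians had the opposite sign to the Fabp4 value of its comparison. EdgeR called 0 macrophage markers, with 1, 2 and 0 at an unadjusted p under 0.05, and limma-voom called 0. DESeq2 called 1, Csf1r (named for its call), which encodes the receptor of a macrophage growth factor, lower in Mg-ALN than in ALN (log2 fold change −0.80, adjusted p = 0.00931). Csf1r had 490.2, 459 and 376 CPM in Gel, 689, 803 and 633 in ALN, and 371, 374 and 450.1 in Mg-ALN. Its ALN libraries lay above all others. So did those of the osteoclast markers Ctsk, Mmp9, Calcr, Atp6v0d2 and Tnfrsf11a, but not those of the other osteoclast markers. Mg-ALN library 1, with the highest macrophage sum, had the least Csf1r.

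Lipe (ENSRNOG00000020546, chromosome 1, 82248046 to 82266727, minus strand) encodes hormone-sensitive lipase, which acts on diglyceride during fat breakdown. It was the member whose groups stood apart. Its counts were 470, 562 and 578 in Gel, 209, 339 and 452 in ALN, and 408, 1020 and 640 in Mg-ALN. In CPM the values were 33.5, 31.7 and 36.2 in Gel, 16.2, 21.3 and 27.5 in ALN, and 32.2, 60.8 and 40.7 in Mg-ALN. By CPM, every ALN library lay below each of the other 6, whereas Gel and Mg-ALN overlapped. The separation of ALN from Mg-ALN rested on the scaling. In counts, ALN library 3 with 452 exceeded Mg-ALN library 1 with 408. In the authors' FPKM, which is also scaled, these libraries had 7.16 and 8.72 in that order. Of the 15460 genes tested, 1.0% had all ALN libraries below the other 6, and 3.51% had them above.

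The group means of Lipe were 33.8 ± 2.28, 21.7 ± 5.64 and 44.5 ± 14.7 CPM. The log2 fold change in ALN against Gel was −0.64 (SE 0.28, unadjusted p = 0.0472, adjusted p = 0.604 by edgeR). In Mg-ALN against ALN it was 1.04 (SE 0.28, unadjusted p = 0.00490, adjusted p = 0.496 by edgeR), a fold of 2.06. DESeq2 gave this comparison an adjusted p of 0.0622 and limma-voom 0.126. In Mg-ALN against Gel the log2 fold change was 0.40 (SE 0.28, adjusted p = 0.640 by edgeR). The exact permutation p over the 3 groups, from log2 CPM, two-sided and not adjusted for the number of genes, was 0.0107. The smallest possible value is 0.00357. For the other 7 members this exact permutation p was 0.204 to 0.904. Between ALN and either other group the exact permutation p was 0.1, the smallest that 3 libraries against 3 allow. The span of Lipe overlaps that of the gene AC121639.1 on the opposite strand, and the protocol does not mention marking of the strand. Reads from a stretch that both genes share could therefore not be told apart. Whether their exons overlap was not examined.

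Endothelial markers are set beside Lipe, and their part in its values was not tested. Other lists had median directions like those of Lipe in the comparisons with ALN, among them the immediate early genes given below. The summed CPM of the 12 endothelial markers in the table was 907, 1105 and 1274 in Gel, 541, 706 and 1347 in ALN, and 1128, 2126 and 1601 in Mg-ALN. ALN libraries 1 and 2 were lowest for both the marker sum and Lipe, and Mg-ALN libraries 2 and 3 highest for both. ALN library 3 went the other way, with the third highest marker sum and the third lowest Lipe. Fabp4, which capillary endothelium also makes, had another order. ALN library 2, with the second lowest sum, had the second highest Fabp4 at 162 CPM. Mg-ALN library 2, with the highest sum, had 90.5 CPM of Fabp4. Not every marker followed the sum, Gpihbp1 being highest in ALN library 1 at 10.1 CPM. Cldn5 was at 0 in all libraries. With the endothelial marker score as a covariate, an alternative chosen after seeing the data, the Lipe log2 fold change was −0.51 in ALN against Gel, 0.35 in Mg-ALN against ALN and −0.16 in Mg-ALN against Gel. Of the 11 endothelial markers tested, 3 were higher and 8 lower in ALN than in Gel (median log2 fold change −0.39), 10 higher and 1 lower in Mg-ALN than in ALN (median 0.70), and all 11 higher in Mg-ALN than in Gel (median 0.62). In the last comparison the groups stood apart for 5 of these markers, against 9.76% of all genes being higher without overlap. EdgeR called 0 endothelial markers, with 1, 5 and 3 at an unadjusted p under 0.05, and limma-voom called 0. DESeq2 called 1, Egfl7 (chosen for its call), in Mg-ALN against ALN (log2 fold change 1.06, adjusted p = 0.000607) and in Mg-ALN against Gel (1.23, adjusted p = 8.05e-05). Egfl7, a secreted protein gene of endothelium, had 49.0, 47.6 and 48.0 CPM in Gel, 69.8, 43.5 and 53.8 in ALN, and 114, 122 and 106 in Mg-ALN.

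Pparg (ENSRNOG00000008839, chromosome 4, 147274107 to 147399380, plus strand), the transcription factor gene of the set, was measured at low counts. It had 71, 40 and 49 counts in Gel, 100, 74 and 118 in ALN, and 49, 43 and 108 in Mg-ALN. In CPM these were 5.05, 2.26 and 3.07, then 7.76, 4.64 and 7.17, then 3.86, 2.56 and 6.86. ALN held the 2 highest libraries, but its library 2 lay below Gel library 1, so the groups overlapped. Between libraries of the same number, ALN was higher than Gel in 3 of 3, though the labels state no pairing. For Fabp4 and Lpl, Gel was the higher of the libraries numbered 2. The log2 fold change was 0.91 (SE 0.50, adjusted p = 0.686 by edgeR) in ALN against Gel, −0.56 (SE 0.49, adjusted p = 0.742) in Mg-ALN against ALN and 0.36 (SE 0.50, adjusted p = 0.820) in Mg-ALN against Gel.

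Plin4 (ENSRNOG00000047046, chromosome 9, 10963723 to 10971277, plus strand) encodes perilipin 4, a coat protein of small lipid droplets. It had 1, 0 and 120 counts in Gel, 5, 0 and 3 in ALN, and 9, 1 and 0 in Mg-ALN. Gel library 3 alone held 86.3% of all its counts, and the gene did not pass the filter. That library also had the highest sum of skeletal muscle markers. The summed CPM of the 12 muscle markers in the table was 98.9, 113 and 11925 in Gel, 2977, 86.9 and 1787 in ALN, and 297, 172 and 11.9 in Mg-ALN. The part of muscle RNA in the Plin4 counts was not tested. With all libraries, of the 12 muscle markers 2 were higher and 10 lower in ALN than in Gel, and all 12 were lower in Mg-ALN than in either other group, with median log2 fold changes of −1.03 (ALN against Gel), −3.27 (Mg-ALN against ALN) and −4.21 (Mg-ALN against Gel). None of these groups stood apart for any muscle marker. Both comparisons with Gel rested on Gel library 3, without which the median was 3.91 in ALN against Gel, with all 12 markers higher, and 0.52 in Mg-ALN against Gel, with 10 higher and 2 lower.

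**Figure D3:**
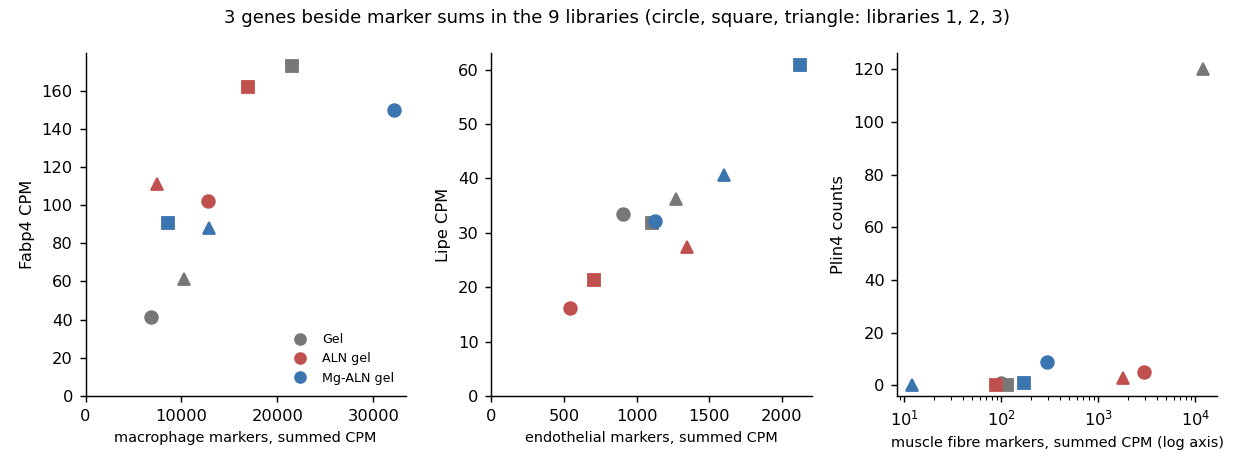
Fabp4 CPM beside the summed CPM of macrophage markers, Lipe CPM beside that of endothelial markers, and Plin4 counts beside that of muscle fibre markers on a log axis, 1 point per library with groups by colour. The 3 libraries with the highest macrophage sums, which include Lyz2, have the most Fabp4, while the other 6 do not all follow that order, Mg-ALN library 2 is highest on both axes for Lipe, and Gel library 3 stands alone for Plin4 with 120 counts.

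**Figure D4:**
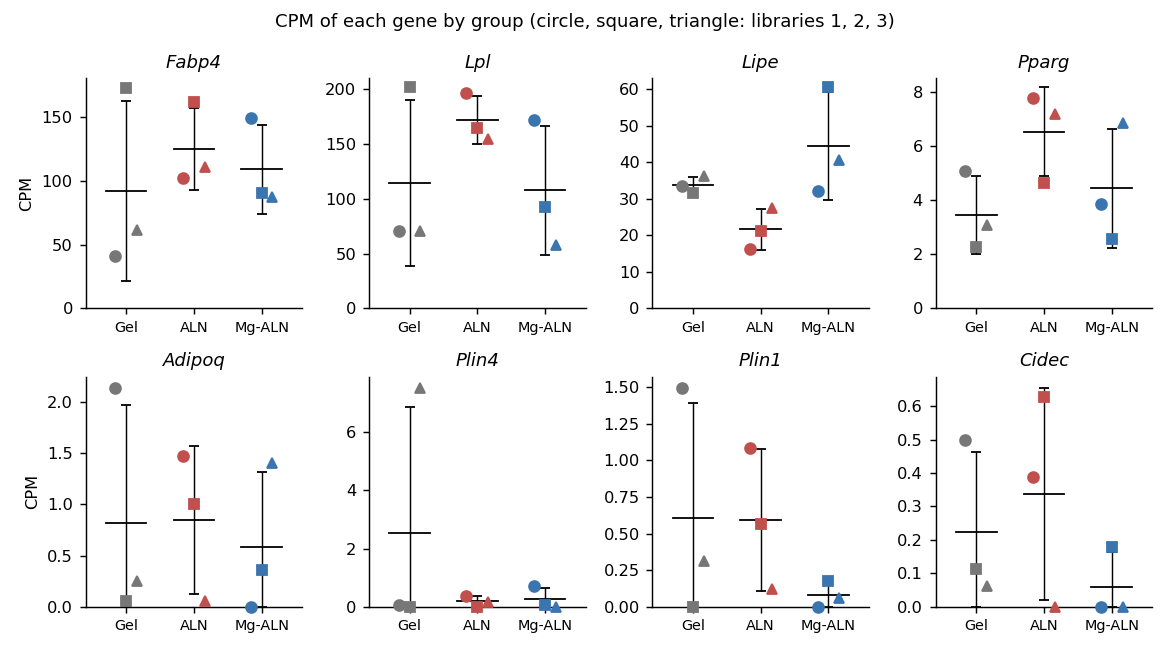
CPM of the 8 genes by group, with 1 point per library, the mean as a horizontal line and the SD as bars that are cut at 0. Only the Lipe panel has all ALN points below those of the other groups, and in the Plin4 panel Gel library 3 stands above all others.

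Set against the background of all genes, the 8 members gave no call. Of the 5 that passed the filter, 0 were called by edgeR at an adjusted p under 0.05 in any of the 3 comparisons or in the joint test, and 0 by DESeq2 or limma-voom. At an unadjusted p under 0.05, edgeR picked 1 member, Lipe, in ALN against Gel (8.20% of all genes), the same 1 in Mg-ALN against ALN (9.19%), 0 in Mg-ALN against Gel (9.31%) and 1, again Lipe, in the joint test (9.29%). By adjusted p, edgeR called 0% of the 15460 genes in each comparison. DESeq2 called 0.860%, 1.19% and 0.330% in ALN against Gel, Mg-ALN against ALN and Mg-ALN against Gel, and 1.60% in the joint test. Limma-voom called 1.70%, 0.0129% and 0%, and 0.0776% in the joint test.

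The groups stood apart for 1 of the 5 tested members in ALN against Gel, where 16.1% of all genes did so, 11.1% with ALN higher and 5.03% with ALN lower. They did so for 1 of 5 in Mg-ALN against ALN, beside 16.5% of all genes, 6.76% with Mg-ALN higher and 9.77% with it lower. In Mg-ALN against Gel they did so for 0 of 5, beside 18.3% of all genes, of which the lower direction took 8.56%. Each of these shares of the members is 0 or 1 gene and is not a result about the set. The median log2 fold change of the 5 was 0.44, −0.50 and 0.25 in the 3 comparisons in that order, beside medians of −0.00, −0.04 and −0.03 over all genes. In ALN against Gel 4 of the 5 had a positive value, Lipe being the other, and in Mg-ALN against ALN 4 had a negative one, Lipe again being the other. The comparisons share libraries, so these opposite directions are not independent of each other.

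**Figure D5:**
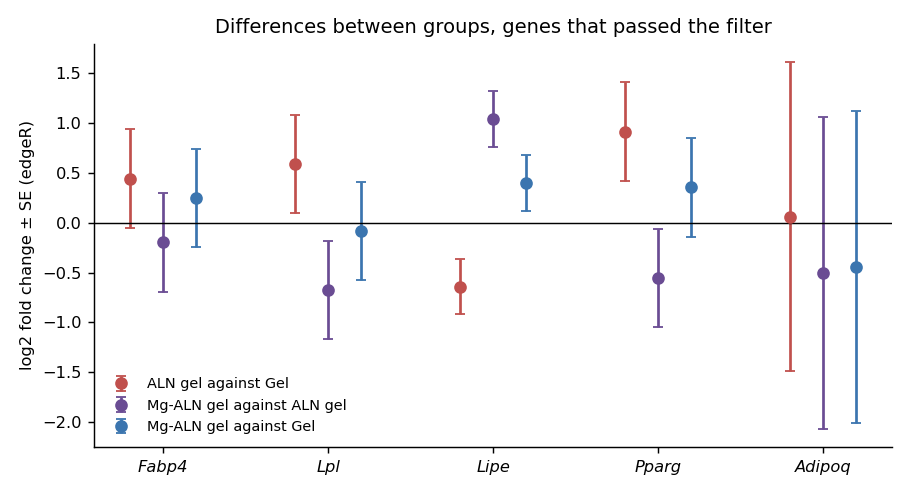
Log2 fold changes with their SE from the edgeR fit for the 5 members that passed the filter, in the 3 comparisons shown by colour. Lipe has the shortest bars and values of −0.64, 1.04 and 0.40, while the bars of Adipoq span more than those of any other member.

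Genes that work with the 8 members were read from further lists. Over the adipogenic transcription factors and cofactors, 3 of 13 tested were higher and 10 lower in ALN than in Gel (median log2 fold change −0.40). In Mg-ALN, 8 were higher and 5 lower than in ALN (median 0.42), and 5 higher and 8 lower than in Gel (median −0.21). Cebpd, an early factor of fat cell differentiation that also responds to inflammation, had 97.4, 280.0 and 124 CPM in Gel, 39.6, 59.6 and 60.0 in ALN, and 249.6, 153 and 143 in Mg-ALN. Every ALN library lay below all others. EdgeR gave it log2 fold changes of −1.65 (adjusted p = 0.528) and 1.78 (adjusted p = 0.496) in ALN against Gel and Mg-ALN against ALN. DESeq2 called both, with −1.70 (adjusted p = 0.0330) and 1.81 (adjusted p = 0.0152). Cebpb, its early partner, averaged 614 ± 465, 174 ± 128 and 531 ± 224 CPM in Gel, ALN and Mg-ALN, and Cebpa, which keeps the mature fat cell state with Pparg, 102 ± 42.4, 62.5 ± 26.9 and 85.4 ± 19.5 CPM. The Cebpb libraries of ALN lay below all those of Mg-ALN, at 84.5 to 321 against 365 to 785 CPM, but overlapped Gel. For Cebpa all groups overlapped.

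Immediate early genes, which can mark how tissue was handled, had the directions of Cebpd and Lipe in ALN against Gel and Mg-ALN against ALN. All 13 had a lower fitted level in ALN than in Gel (median log2 fold change −0.92), all 13 a higher one in Mg-ALN than in ALN (median 1.03), and 9 a higher one in Mg-ALN than in Gel (median 0.21). EdgeR called 0 of them, with 2, 6 and 1 at an unadjusted p under 0.05 in these comparisons, DESeq2 called Ier2 in Mg-ALN against ALN, and limma-voom called 0. Their part in the Cebpd and Lipe values was not tested.

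Among the 10 tested genes of fatty acid uptake and lipoprotein lipase control, 4 were higher and 6 lower in ALN than in Gel (median −0.31), 8 higher and 2 lower in Mg-ALN than in ALN (median 0.22), and 5 higher and 5 lower in Mg-ALN than in Gel (median 0.10). Angptl4, whose product inhibits lipoprotein lipase, had 27.7, 408 and 173 CPM in Gel, 6.28, 91.0 and 34.0 in ALN, and 168, 80.8 and 116 in Mg-ALN. Its ALN libraries overlapped both other groups. Each of the 3 lay below the Gel library of the same number, though the labels state no pairing. The log2 fold change of ALN against Gel was −2.21 (SE 1.02, adjusted p = 0.630 by edgeR). Gpihbp1, the anchor of lipoprotein lipase on capillary walls, was singled out after its values were seen. It had 2.21, 2.48 and 1.82 CPM in Gel, 10.1, 6.71 and 4.01 in ALN, and 6.31, 4.59 and 2.92 in Mg-ALN. All Gel libraries lay below all others, with log2 fold changes of 1.67 (SE 0.48, adjusted p = 0.528 by edgeR) in ALN and 1.08 (SE 0.47, adjusted p = 0.530) in Mg-ALN against Gel. Its counts were low and close at the edge, with 44 in Gel library 2 and 46 in Mg-ALN library 3. How many of all genes had Gel below all others was not computed. Fabp5, the fatty acid carrier found in macrophages and skin, averaged 109.8 ± 82.9, 161 ± 43.9 and 161 ± 16.8 CPM in Gel, ALN and Mg-ALN.

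The lipid droplet and lipolysis list had 14 tested genes. Of these, 5 were higher and 9 lower in ALN than in Gel (median −0.04), 6 higher and 8 lower in Mg-ALN than in ALN (median −0.01), and 5 higher and 9 lower in Mg-ALN than in Gel (median −0.23). Plin2, the droplet coat protein of most cell types including macrophages, averaged 416 ± 454, 98.3 ± 83.0 and 197 ± 63.6 CPM in Gel, ALN and Mg-ALN, and Gel library 2 alone reached 927 CPM. Per transcript length its mean over the 9 libraries was 127 FPKM, beside 0.138 FPKM for Plin1. G0s2, an inhibitor of the lipase that starts triglyceride breakdown, ranged from 1.42 to 317 CPM within Gel and from 1.32 to 68.1 within ALN, and the groups overlapped.

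Of the 12 tested genes of fatty acid and triglyceride synthesis, 2 were higher and 10 lower in ALN than in Gel (median −0.14), 5 higher and 7 lower in Mg-ALN than in ALN (median −0.16), and 3 higher and 9 lower in Mg-ALN than in Gel (median −0.29). Acly, which makes the acetyl-CoA for fat synthesis, averaged 81.1 ± 12.9, 81.4 ± 10.04 and 78.3 ± 28.5 CPM in Gel, ALN and Mg-ALN. Dgat2, which makes triglyceride, averaged 155 ± 131, 70.3 ± 50.1 and 153 ± 57.7 CPM, with overlapping groups.

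Of the 15 tested adipokines and adipocyte surface genes, 6 were higher and 9 lower in ALN than in Gel (median −0.07), 8 higher and 7 lower in Mg-ALN than in ALN (median 0.14), and 7 higher and 8 lower in Mg-ALN than in Gel (median −0.15). Of the 12 white adipocyte markers outside the members, 5 could be tested, with 3 higher and 2 lower in ALN than in Gel (median 0.36), 1 higher and 4 lower in Mg-ALN than in ALN (median −1.34), and 1 higher and 4 lower in Mg-ALN than in Gel (median −0.73). Cfd had 147, 95.1 and 65.3 CPM in Gel, 439.6, 186 and 77.6 in ALN, and 121, 43.6 and 112 in Mg-ALN, with the groups overlapping. Gpd1 and Slc2a4, which skeletal muscle also expresses, were highest in Gel library 3 with 543 and 314 counts, the library with the highest muscle sum. Of the brown adipocyte markers, 3 could be tested, with 2 higher and 1 lower in ALN than in Gel (median 0.80), 3 lower in Mg-ALN than in ALN (median −0.72) and 2 higher and 1 lower in Mg-ALN than in Gel (median 0.15).

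The list for marrow stromal progenitors, from which marrow adipocytes arise, had 14 tested genes. In ALN 9 were higher and 5 lower than in Gel (median 0.28), and in Mg-ALN 6 were higher and 8 lower than in ALN (median −0.44) and 3 higher and 11 lower than in Gel (median −0.37). Cxcl12, the chemokine by which these cells hold blood stem cells in the marrow, averaged 406 ± 169, 665 ± 332 and 218 ± 65.2 CPM in Gel, ALN and Mg-ALN. Its log2 fold change in Mg-ALN against ALN was −1.61 (SE 0.47, adjusted p = 0.496 by edgeR).

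The bone cell lists set the context. All 10 tested osteoclast markers were higher in ALN than in Gel (median log2 fold change 1.52) and lower in Mg-ALN than in ALN (median −1.52), and 5 were higher and 5 lower in Mg-ALN than in Gel (median −0.07). The groups stood apart for 5 of them in the first comparison and for 8 in the second, beside the 11.1% and 9.77% of all genes given above. Of the 9 osteoblast markers, 2 were higher and 7 lower in ALN than in Gel (median −0.81), 3 higher and 6 lower in Mg-ALN than in ALN (median −0.56), and 9 lower in Mg-ALN than in Gel (median −1.11). Over the 148 genes of all 14 lists that were tested, edgeR called 0 in each comparison, with 17, 28 and 10 at an unadjusted p under 0.05 in ALN against Gel, Mg-ALN against ALN and Mg-ALN against Gel. These were 11.5%, 18.9% and 6.76% of the listed genes, beside 8.20%, 9.19% and 9.31% of all genes. DESeq2 called 2, 5 and 1 of them, or 1.35%, 3.38% and 0.676%, beside 0.860%, 1.19% and 0.330% of all genes. Limma-voom called 4, 0 and 0, or 2.7%, 0% and 0%, beside 1.70%, 0.0129% and 0% of all genes. Many of the listed genes share a pathway or cell type, so they are not independent of each other. The 4 called by limma-voom were the osteoclast genes Mmp9, Atp6v0d2, Tnfrsf11a and Calcr.

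The genes whose pattern over the 9 libraries was most like the mean of the 8 members were Fscn3, RGD1560436, Trim59, RGD1310951 and Pigw, with a root mean square difference in centred log2 CPM of 0.279 to 0.295. Nearest to Adipoq alone were the mitochondrially encoded ND5 with a difference of 1.03, Ticrr with 1.08 and RGD1309350 with 1.10. Adipoq itself rests on at most 30 counts per library. ND5 had 82529, 15716 and 16712 counts in Gel, 151434, 71572 and 38045 in ALN, and 9405, 46842 and 142087 in Mg-ALN. Its lowest library, Mg-ALN library 1, was the one without Adipoq reads.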

How the data were processed

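Poly-A RNA was measured in 9 libraries, grouped by the sample titles. The authors deposited whole-number read counts per gene with no normalization, and FPKM values. Checked against the counts, each deposited FPKM value was the count divided by gene length and by 1 constant per library, which was 0.804 to 1.19 times the column total. Per the submitters' processing notes, the tools included featureCounts 1.5.0-p3 and HISAT2 2.0.5, as well as fastp, edgeR 3.22.5, StringTie 1.3.3b and DESeq2 1.20.0. Gene coordinates are those of the deposited table, whose genome build is not given in the sources used here. Per the labels' protocols, mRNA was captured on poly-T beads and cDNA was primed with random hexamers.

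The count models used edgeR 4.0.16, DESeq2 1.42.0 and limma 3.58.1 under R 4.3.3. Filtering by filterByExpr (minimum count 10, minimum total 15) left 15460 genes. The edgeR quasi-likelihood model was fitted to the 9 libraries together, with TMM scaling and a coefficient per group. P-values were two-sided, Benjamini-Hochberg adjusted over all genes tested within each comparison, with a threshold of 0.05. CPM used TMM-scaled sizes, and log2 CPM had a prior count of 0.5. Single members were also compared by exact permutation of libraries. The script was tested on simulated data. A chi-square test of counts between libraries gave at least 72.3 per degree of freedom, so no library was a copy of another.

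The members and lists were chosen with earlier results of these data known. The text names the 8 members, up to 3 members of each list by highest mean CPM, and the nearest genes by root mean square difference (5 to the members' mean, 3 to Adipoq). Others are named where their values drew attention, after those were seen. Of the 195 entries in 14 lists, 186 matched a gene, 7 did not, and 2 led to a gene already in their list. RefSeq GRCr8 was used for names and for promoter sequences, which 5 of the 8 members had. Counts of 0 allow up to 3 counts as a one-sided bound at 95%, and this covers counting error only.

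Replicate numbers recur in each group. For Gel with ALN, same-numbered libraries deviated together from their means, with r across genes of 0.341, 0.419 and 0.226. Between unlike numbers of these groups r was −0.283 to −0.0125. Deviations from a group's own mean cancel within that group, so agreement of like numbers makes r between unlike numbers tend to be negative. The negative values thus add no evidence of pairs. By the rule used (every r over 0.1), Gel and ALN numbers were taken as pairs, though the labels state no pairing. Libraries of unlike number could agree as much, with r = 0.320 for Mg-ALN library 2 with ALN library 3, so the rule cannot establish pairs. For Gel with Mg-ALN r was −0.0767, −0.0452 and −0.199, and for the ALN libraries with those of Mg-ALN it was 0.130, −0.120 and −0.127, so there the numbers are not used as pairs. The alternatives were other scaling, no filter, DESeq2, limma-voom with quality weights, the replicate block, only the groups compared, covariates and leaving out each library.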

Additional observations from a re-analysis of the deposited data

How the results depend on the processing

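No member passed the threshold in any comparison under any alternative run, where edgeR, DESeq2 and limma-voom gave a lowest adjusted p of 0.0622. Of 289 log2 fold changes of single members under an alternative, 262 kept the main direction and 27 turned. Lipe kept its direction in ALN against Gel and in Mg-ALN against ALN under every alternative, with 0.79 to 1.26 in the latter when each library was left out.

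With each library left out in turn, Adipoq ranged from −0.59 to 2.41 in ALN against Gel, −2.12 to 0.15 in Mg-ALN against ALN and −2.06 to 1.90 in Mg-ALN against Gel. Fabp4 ranged from −0.49 to 0.085 in Mg-ALN against ALN and −0.11 to 1.06 in Mg-ALN against Gel, where Pparg ranged from −0.11 to 0.73 and Lpl from −0.60 to 0.59. The median of the members ranged from −0.10 to 0.48, −0.70 to −0.23 and −0.19 to 0.25 in the 3 comparisons. Under the other alternatives it ran from 0.20 without the filter to 0.80 with the macrophage score in ALN against Gel, from −0.58 with the muscle score to −0.012 with the endothelial score in Mg-ALN against ALN, and from −0.30 without the filter, where all 8 members enter, to 0.51 under limma-voom in Mg-ALN against Gel.

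Other turns were in Adipoq with the mitochondrial share (−1.10) or endothelial score (−0.93) as a covariate in ALN against Gel, and with the endothelial score (3.51) in Mg-ALN against ALN. In Mg-ALN against Gel, Adipoq turned with the endothelial (2.58) and macrophage (0.14) scores and under limma-voom (1.67). There Fabp4 turned under limma-voom (−0.054), Lipe with the endothelial score (−0.16), and Lpl with the mitochondrial share (0.024), endothelial score (0.19) and macrophage score (0.045). The endothelial and macrophage scores were added after seeing the data. The cause was not tested.

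The replicate block turned Adipoq in Mg-ALN against Gel (0.51) and changed no call. With the numbers of Gel and ALN taken as pairs, the members' median in ALN against Gel was 0.60 with the block over all 9 libraries. It was 0.68 with the block over the 6 libraries of these groups, a fit also added after seeing the data.

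The low counts of Adipoq, Plin1, Cidec and Plin4 limit what these libraries can show of them.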

Other observations

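The following genes were chosen after their values were seen. Lepr, the leptin receptor that marks stromal progenitors of marrow adipocytes, had 25.2, 2.43 and 2.45 CPM in Gel, 27.2, 11.5 and 9.60 in ALN, and 5.12, 0.417 and 3.49 in Mg-ALN. Its 3 highest libraries, Gel library 1 and ALN libraries 1 and 2, were those with the most Plin1 and Cidec counts. Of the stromal progenitor list, Cxcl12 and Kitlg were also highest in these 3 libraries, and the other markers were not. Pdgfra was lowest in ALN libraries 1 and 2, at 98.0 and 123 CPM. The log2 fold change of Lepr in Mg-ALN against ALN was −2.42 (SE 1.10, adjusted p = 0.548 by edgeR), and all 3 ALN libraries lay above all 3 Mg-ALN libraries. Cidea, a relative of Cidec that also enlarges lipid droplets, had 0.427, 2.26 and 0.313 CPM in Gel, 2.64, 7.28 and 4.19 in ALN, and 2.995, 2.32 and 3.24 in Mg-ALN. By CPM all Gel libraries lay below all others, with a log2 fold change of 2.22 (SE 0.78, adjusted p = 0.554 by edgeR) in ALN against Gel. This separation rested on the scaling. In counts, Gel library 2 with 40 exceeded ALN library 1 with 34 and Mg-ALN libraries 1 and 2 with 38 and 39. The share of all genes with Gel below all others was not computed. For Lepr and Cidea the differences did not pass the threshold over all genes.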
